A study of Rattus norvegicus with 24 samples.

Results

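Solute carriers are membrane proteins that move amino acids, sugars, ions, metals, vitamins, drugs and metabolic intermediates across the plasma membrane and the membranes of organelles. In liver they take nutrients and drugs up from portal blood, supply mitochondria and the urea cycle, and pass metabolites to blood and bile. The 81 carrier genes described here are those whose name on the array began with Slc and a digit and with a probe bright enough to be told from background, in the treated or the vehicle channel, on each of the 4 arrays of some compound. They came from 93 such names, after 4 carriers and all names beginning with Slco had been set aside, and from 11757 genes tested in all. Detection brightness therefore chose the members, and the ratio of treated to vehicle did not, except that a gene can pass through the brighter channel alone. This was so for Slc34a1, Slc18a3, Slc1a1 and Slc5a1, which lay well above background in the vehicle channel only. Of the 12 names that did not pass, Slc6a11 came nearest, with 3 arrays of 1 compound, followed by Slc23a3 with 2 arrays, and their compound means lay between -0.03 and 0.10. In all, 72 of the 81 members were detected in both channels under all 6 compounds. The names Slc21a1, Slc21a5, Slc21a10 and Slc21a13 are older names of organic anion transporting polypeptides, and Slc9a3r1 encodes a scaffold protein that anchors carriers and is not itself a carrier.

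Liver RNA came from male F344 rats, an inbred strain, labelled as 5 weeks of age. The rats received a compound daily by gavage at 5 ml/kg for 28 days, with 4 rats per compound and 24 in all. The 4 carcinogens of the set are 1-amino-2-methylanthraquinone (150 mg/kg/day), hexachloroethane (500 mg/kg/day), 1,2,3-trichloropropane (50 mg/kg/day) and monuron, labelled 3-(4-chlorophenyl)-1,1-dimethylurea (250 mg/kg/day). The 2 non-carcinogens are 1,2-dichlorobenzene (300 mg/kg/day) and tetracycline hydrochloride (1000 mg/kg/day). The vehicle was water for tetracycline hydrochloride and corn oil otherwise. Each 2-colour array carried the RNA of 1 treated rat against a pool of RNA from 4 vehicle rats, and the labels describe a control group for each compound. A value below is the log2 ratio of the treated rat to its vehicle pool, so that 1 is a 2-fold increase and -1 a 2-fold decrease. Rose and fell are used where the mean of 4 rats differed from 0 at an adjusted p under 0.05 in the limma fit across all genes (Benjamini-Hochberg), and called where the change was also at least 2-fold. The pool counts as 1 control sample, so the spread between control rats is in no test.

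The share of probes well above background ran from 59.7% to 71.7% for treated rats and from 64.2% to 75.9% for vehicle pools over the 24 arrays. All 7 hepatocyte markers measured were detected on every array. Between 5 and 7 of them fell under each compound, 1 rose under 1,2,3-trichloropropane, and list medians were between -0.58 and -0.27. Among all genes between 21.6% and 31.1% fell, by compound, and 20.3% rose under 1,2,3-trichloropropane. The 3 red blood cell genes measured all rose under monuron, with a median of 1.16, where 20.5% of all genes rose. Every compound had a separate slide, and the slide's part in a difference between compounds cannot be told apart from the compound's. No dyes were swapped, so a dye effect alike on all arrays stays in every ratio to vehicle. It cannot be told apart from a change shared by all 6 compounds, as for Slc7a10, Slc30a4 and Slc5a6 below. Ratios also depend on how each array was scaled. The reported values come from loess scaling. Centring each array on its median, without loess, moved the median of all genes from between -0.03 and -0.01 to between -0.46 and -0.17 per array, so the weaker increases below are small against that shift. In whole liver, fewer cells of a type and less RNA per cell cannot be told apart either.

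The probes of the 4 called carriers are shown because every ratio below rests on what these 60 bases measure. Slc6a6 encodes the taurine transporter, which brings the amino sulfonic acid taurine into cells. It had 3 kept probes, of which 15749 and 5749 have the same sequence and 6328 overlaps them by 55 bases with 1 mismatch. The mismatch, in capitals, is G39T, counted from 1 at the first listed base of probe 15749. A further Slc6a6 probe, 5244, was not above background on any array and stayed between -0.13 and 0.26 in all rats. Bases are in the order in which the scanner files list them.
Slc6a6, probe 15749: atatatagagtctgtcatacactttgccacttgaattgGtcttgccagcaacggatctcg
Slc6a6, probe 6328: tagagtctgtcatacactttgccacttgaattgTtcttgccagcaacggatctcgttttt
Slc6a6, probe 5244, dim: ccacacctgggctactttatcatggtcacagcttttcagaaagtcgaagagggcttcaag
Slc7a10, which encodes an exchanger of small neutral amino acids, and Slc22a6, which encodes an organic anion transporter best known from the kidney, had 1 probe each.
Slc7a10, probe 2413: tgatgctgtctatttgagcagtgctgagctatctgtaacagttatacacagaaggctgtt
Slc22a6, probe 5044: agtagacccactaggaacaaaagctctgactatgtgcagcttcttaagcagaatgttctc
Slc34a2, which encodes a sodium-coupled phosphate carrier of epithelia, had 3 probes. Probes 1784 and 11784 share a sequence, and 703143 is distinct from them.
Slc34a2, probe 1784: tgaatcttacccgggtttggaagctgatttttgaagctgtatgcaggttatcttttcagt
Slc34a2, probe 703143: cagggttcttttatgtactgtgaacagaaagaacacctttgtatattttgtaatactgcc

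With the reported processing every call at 2-fold against vehicle was a decrease. This depends on the processing. Among 13 alternative runs, described at the end, Slc7a5 reached increases of up to 1.15 under hexachloroethane and 1.17 under monuron, past the 2-fold limit. The 8 called pairs of carrier and compound were Slc6a6 in 4 compounds, Slc7a10 in 2, and Slc22a6 and Slc34a2 in 1 each. Hexachloroethane had 1 called member, where 0.383% of all genes tested were called lower. 1,2,3-trichloropropane had 1, against 0.646% of all genes, and 1-amino-2-methylanthraquinone had 0, against 0.774%. Monuron had 3, against 0.561%, 1,2-dichlorobenzene 3, against 0.714%, and tetracycline hydrochloride 0, against 0.0766%. In the other direction 0 members were called in any compound, where the share of all genes called higher was 0.442% in hexachloroethane, 0.272% in 1,2,3-trichloropropane, 1.27% in 1-amino-2-methylanthraquinone, 0.723% in monuron, 0.697% in 1,2-dichlorobenzene and 0.153% in tetracycline hydrochloride. These are counts of a few genes, and they were not tested as a group.

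The taurine transporter Slc6a6 had the widest span of any member, from a 3.35-fold decrease under 1,2,3-trichloropropane to a small increase under 1-amino-2-methylanthraquinone. Under 1,2,3-trichloropropane the 4 rats were at -1.42, -1.63, -1.71 and -2.22, a mean of -1.75 ± 0.34 (SD, n = 4; adjusted p = 3.0e-07). Under 1,2-dichlorobenzene they were at -1.15, -1.70, -1.08 and -1.32, a mean of -1.31 ± 0.28 (SD, n = 4; adjusted p = 5.3e-06). Under monuron they were at -1.42, -0.82, -1.02 and -1.70, a mean of -1.24 ± 0.40 (SD, n = 4; adjusted p = 1.6e-05). All rats of these 3 compounds lay below 0, and the ranges of monuron and 1,2-dichlorobenzene overlapped. Under hexachloroethane the rats were at -0.57, -0.91, -1.60 and -1.25, a mean of -1.08 ± 0.44 (SD, n = 4; adjusted p = 7.9e-05). Without rat 3 of hexachloroethane the mean was -0.91, under the 2-fold limit, with an adjusted p of 0.0018.

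Slc6a6 was not lower than vehicle in the remaining compounds by the test. Under 1-amino-2-methylanthraquinone the rats were at 1.08, 0.16, 0.35 and 0.16, a mean of 0.43 ± 0.44 (SD, n = 4; adjusted p = 0.048), which turned to -0.14 when arrays were centred on the median. Rat 1 stood above the other rats, and without it the mean was 0.22 with an adjusted p of 0.36. Of 13 alternative runs, 5 lost this increase and 1, the median centring, turned its sign. Under tetracycline hydrochloride the rats were at -0.04, -0.11, 0.52 and 0.82, a mean of 0.30 ± 0.45 (SD, n = 4; adjusted p = 0.22), so 2 rats were near 0 and 2 above it. No rat of these 2 compounds overlapped a rat of the 4 compounds in which Slc6a6 was called lower. The differences between compounds were themselves tested, setting a compound against the average of the remaining 5. Slc6a6 under 1,2,3-trichloropropane was lower than the other 5 by a difference of -1.17 (adjusted p = 0.00023). It was higher under 1-amino-2-methylanthraquinone by 1.45 (adjusted p = 5.8e-06) and under tetracycline hydrochloride by 1.29 (adjusted p = 8.2e-05). Hexachloroethane and tetracycline hydrochloride were scanned on 1 day, and within that day Slc6a6 differed by -1.38 (SE 0.26, adjusted p = 0.0010). Their vehicles also differed, corn oil against water.

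The 3 kept Slc6a6 probes gave nearly the same ratios. Under 1,2,3-trichloropropane probe 15749 had a mean of -1.74, probe 6328, with the shifted window and the mismatch, -1.76, and probe 5749 -1.75. Since these windows overlap, they are 1 stretch of the transcript and not 3 independent measurements. Averaging in the dim probe 5244 moved the mean to -0.81 under hexachloroethane, -0.92 under monuron and -0.95 under 1,2-dichlorobenzene.

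The vehicle pools differed in Slc6a6 too. The normalized log2 signal of the vehicle channel was 10.15 on hexachloroethane arrays and 11.79 on monuron arrays, while the 4 arrays of a compound differed by SDs between 0.02 and 0.05. The treated channel ran from 9.06 under hexachloroethane to 11.61 under 1-amino-2-methylanthraquinone, with SDs between 0.28 and 0.45. The pool therefore spanned 1.64 and the treated rats 2.55 on the log2 scale across compounds. The share of that span that belongs to slide, scan or control animals was not tested.

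**Figure D1:**
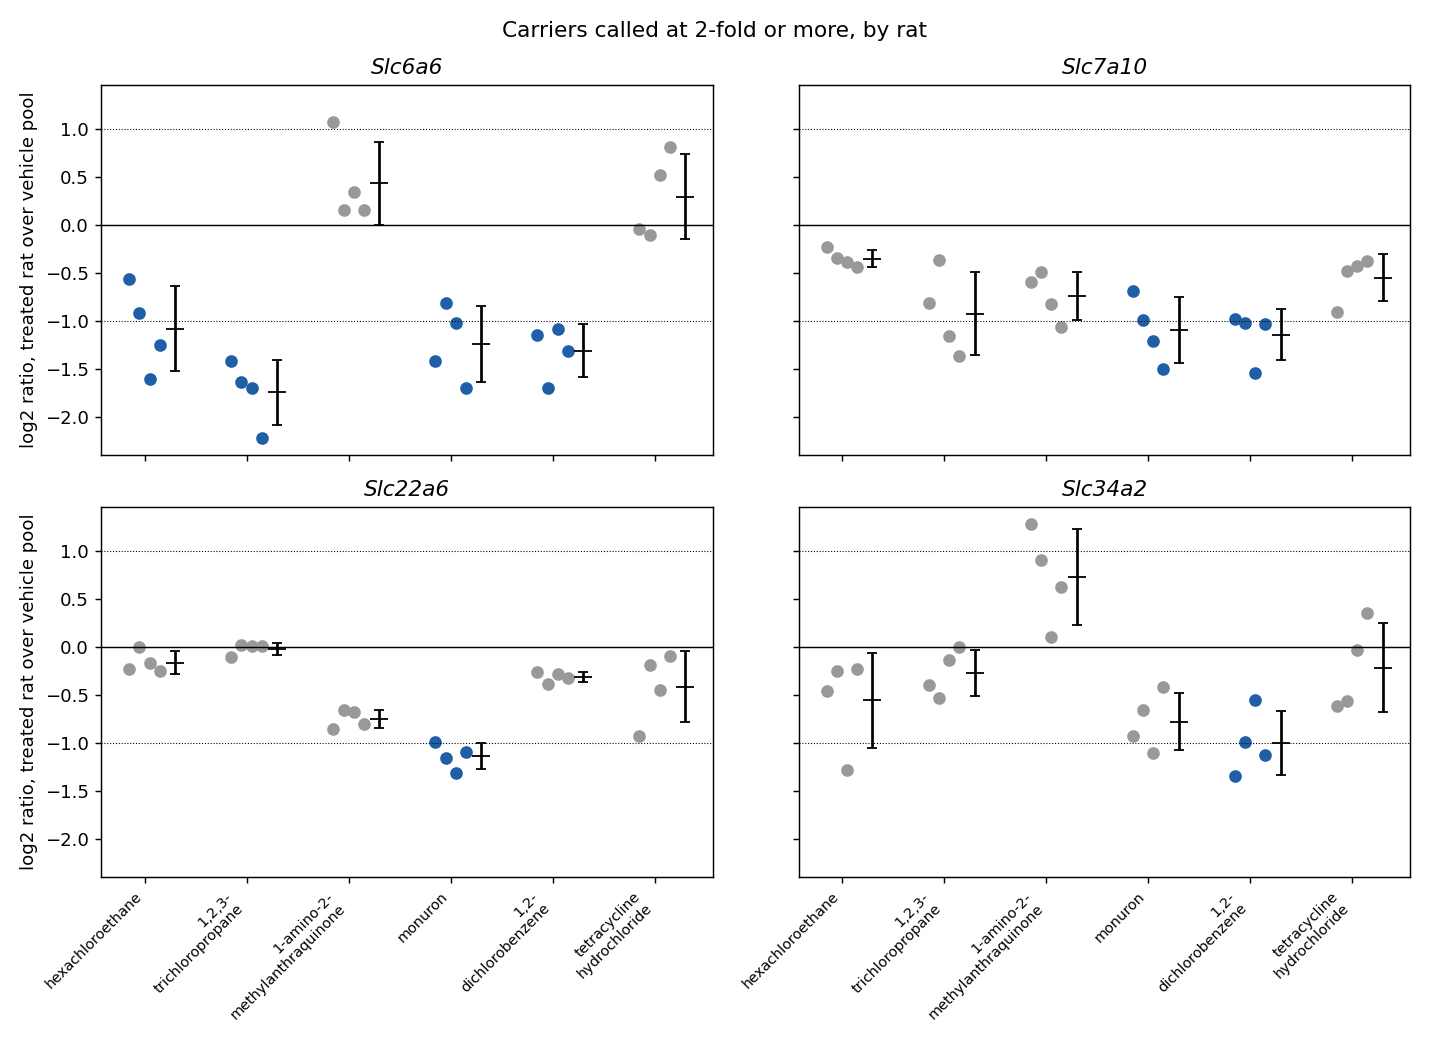
Log2 ratio of each treated rat to its vehicle pool (y axis) under each compound (x axis) for the 4 called carriers. Points are rats, blue where the compound was called at 2-fold or more, bars are mean ± SD of 4 rats, and dotted lines mark 2-fold. Slc6a6 rats lie between -2.22 and -0.57 in the 4 called compounds and between -0.11 and 1.08 in the other two.

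Slc7a10 fell in all 6 compounds, and all 24 rats lay below 0. The part of this decrease that all compounds share cannot be told apart from a dye effect of its probe. Under 1,2-dichlorobenzene the rats were at -0.98, -1.02, -1.55 and -1.03, a mean of -1.15 ± 0.27 (SD, n = 4; 2.21-fold lower, adjusted p = 6.2e-07). Under monuron they were at -0.69, -0.99, -1.21 and -1.50, a mean of -1.10 ± 0.34 (SD, n = 4; 2.14-fold lower, adjusted p = 1.8e-06). Without rat 4 of monuron the mean was -0.96, just under the 2-fold limit. The means were -0.92 under 1,2,3-trichloropropane, -0.74 under 1-amino-2-methylanthraquinone and -0.55 under tetracycline hydrochloride. The smallest decrease was in hexachloroethane, with rats between -0.44 and -0.23, a mean of -0.35 ± 0.09 (SD, n = 4; adjusted p = 0.043). Leaving out any 1 rat of that compound ended this call, with adjusted p between 0.059 and 0.14. With these, 6 of 13 alternative runs lost the decrease. Neighbours in this order overlapped. Against the other 5 compounds no Slc7a10 difference reached 2-fold, and the largest was hexachloroethane at 0.54 (adjusted p = 0.0097). Across compounds the level of Slc7a10 in the vehicle channel spanned 1.09 on the log2 scale, from 10.75 on hexachloroethane arrays to 11.85 on monuron arrays, while that of the treated rats spanned 0.57. The vehicle level of this gene thus varied more between compounds than the treated level.

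Slc22a6 was called in monuron only. The 4 monuron rats were at -0.99, -1.15, -1.32 and -1.09, a mean of -1.14 ± 0.14 (SD, n = 4; 2.20-fold lower, adjusted p = 1.9e-09). The treated level in monuron, 7.36, lay within the range of the other compounds, 7.08 to 7.59. The vehicle level, 8.50, stood above the 7.39 to 7.94 of the other arrays. These levels come from different slides and the treated channel is dim throughout, so which channel carries the difference was not tested. Slc22a6 also fell under 1-amino-2-methylanthraquinone, with rats between -0.86 and -0.66 and a mean of -0.75, where the vehicle level was the next highest at 7.94. The rats of those 2 compounds did not overlap. It fell by less under tetracycline hydrochloride, at -0.41 with rats from -0.92 to -0.09 (-0.15 with median centring, adjusted p = 0.088, and -0.24 without rat 1), and under 1,2-dichlorobenzene, at -0.31. The decrease under 1,2-dichlorobenzene was lost in 1 of 12 alternative runs. Means were -0.16 under hexachloroethane and -0.02 under 1,2,3-trichloropropane, neither past the test. Monuron and 1,2-dichlorobenzene were scanned on 1 day, and within it Slc22a6 was lower in monuron by a difference of -0.82 (adjusted p = 3.4e-05). The gene is dim, above background in the treated channel on 21 of 24 arrays. With the scanner's own ratio, which has no added offset, its mean was -1.97 in monuron and -1.53 in 1-amino-2-methylanthraquinone.

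Slc34a1, a phosphate carrier best known from the kidney, also had its highest vehicle level on monuron arrays. That level was 7.24 on monuron arrays and between 6.29 and 6.56 elsewhere. It was not well above background in the treated channel of any array, so its ratio there is only a bound, at least 1.20-fold lower. Slc34a1 entered the set through the vehicle channel alone, so its difference in monuron is partly fixed by the choice of members and no test is given for it.

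Slc34a2 moved in both directions. Under 1,2-dichlorobenzene the rats were at -1.34, -0.99, -0.55 and -1.13, a mean of -1.002 ± 0.33 (SD, n = 4; adjusted p = 0.00015), which lies on the 2-fold limit. It was -0.97 when the identical probes were counted once, and -0.89 and -0.96 without rats 1 and 4. Under monuron it fell to -0.78 ± 0.30 (SD, n = 4), with all rats below 0. Under hexachloroethane the rats were at -0.45, -0.25, -1.29 and -0.23, a mean of -0.55 that rested on rat 3; without it the mean was -0.31 (adjusted p = 0.23). Under 1-amino-2-methylanthraquinone Slc34a2 rose, with rats at 1.29, 0.91, 0.10 and 0.62, a mean of 0.73 ± 0.50 (SD, n = 4; adjusted p = 0.0022), and 0.33 (adjusted p = 0.080) with median centring. No rat of 1,2-dichlorobenzene, monuron or hexachloroethane reached the lowest of these. The difference of 1-amino-2-methylanthraquinone from the other 5 compounds was 1.29 (adjusted p = 2.8e-05). Means were -0.27 under 1,2,3-trichloropropane and -0.21 under tetracycline hydrochloride, neither past the test.

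The distinct Slc34a2 sequences differed in size. Under 1-amino-2-methylanthraquinone probe 1784 gave 0.87 and probe 703143 gave 0.43, and under 1,2-dichlorobenzene they gave -1.06 and -0.88. Bile duct cells express this carrier, and 1 marker of 6 on the bile duct list, Spp1, was among the genes tested. Spp1 rose by 1.72 under 1-amino-2-methylanthraquinone, with rats between 1.49 and 1.97, and fell under 1,2-dichlorobenzene, at -0.57 with rats between -0.86 and -0.17, and under hexachloroethane, at -0.47 with rats between -0.59 and -0.26. It was -0.15 under monuron, with rats between -0.74 and 0.35. Spp1 is also made by other cells, and its part in the Slc34a2 values was not tested. The vehicle level of Slc34a2 spanned 1.29, from 9.88 on 1,2,3-trichloropropane arrays to 11.17 on hexachloroethane arrays, and the treated level spanned 1.29 as well.

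**Figure D2:**
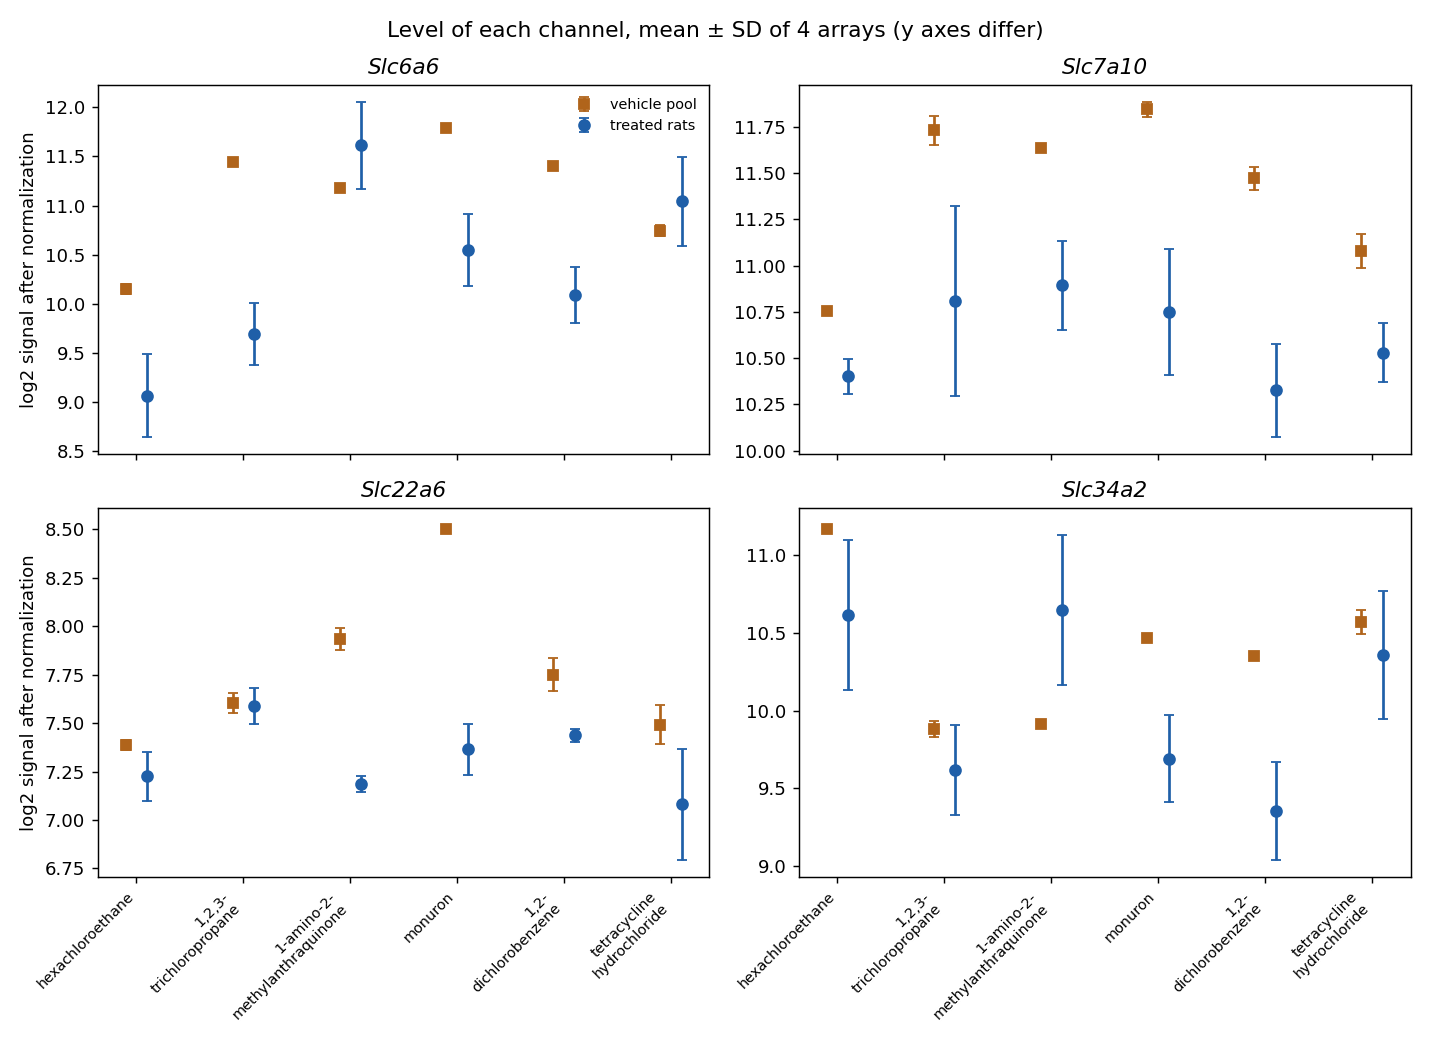
Normalized log2 signal (y axis, ranges differ between panels) of the vehicle pool (squares) and the treated rats (circles) under each compound (x axis), as mean ± SD of 4 arrays. For Slc22a6 in monuron the vehicle level of 8.50 stands above all other vehicle levels while the treated level of 7.36 does not stand apart; for Slc6a6 both channels vary.

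Without the fold limit, 31 to 51 members passed the test in each compound, in both directions. Hexachloroethane had 18 members higher and 23 lower, 22.2% and 28.4% of the members, where 18.8% and 24.1% of all genes were. For 1,2,3-trichloropropane the counts were 16 and 25 (19.8% and 30.9%), with 20.3% and 24.9% of all genes. For 1-amino-2-methylanthraquinone they were 21 and 30 (25.9% and 37%), with 27.9% and 31.1%. Monuron had 22 and 27 (27.2% and 33.3%), with 20.5% and 24.9%. 1,2-dichlorobenzene had 19 and 26 (23.5% and 32.1%), with 25.2% and 26.6%, and tetracycline hydrochloride 17 and 14 (21.0% and 17.3%), with 15.1% and 21.6%. The members' share thus lay above or below that of all genes by compound and direction, and these differences were not tested. The median absolute ratio of the members was above that of all genes in each compound, at 0.194 against 0.111 in hexachloroethane, 0.233 against 0.154 in 1-amino-2-methylanthraquinone and 0.1045 against 0.1001 in tetracycline hydrochloride, for example. The carriers' median ratio was between -0.06 and 0.01 in the 6 compounds, and that of all genes between -0.02 and -0.01. With median centring the share of lower among members past the test was between 80.0% and 85.7%, where it is between 45.2% and 61.0% here, and among all genes between 67.7% and 70.4%, where it is between 51.4% and 58.9%. The balance of higher and lower therefore depends on the scaling, and the sentences below say where the direction of a named carrier does. Genes of the other lists and cell markers were not run with median centring, so their directions hold for loess scaling. Median centring also made decreases larger, from -0.71 to -1.52 for Slc25a15 in monuron and from -0.76 to -1.57 for Slc26a1 in 1-amino-2-methylanthraquinone, so the sizes below hold for loess scaling. The scanner's own ratio and the deposited series table turned the sign of no named change. The following accounts go by what the carriers transport. Members outside the rule for named genes were named after their values had been seen.

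**Figure D3:**
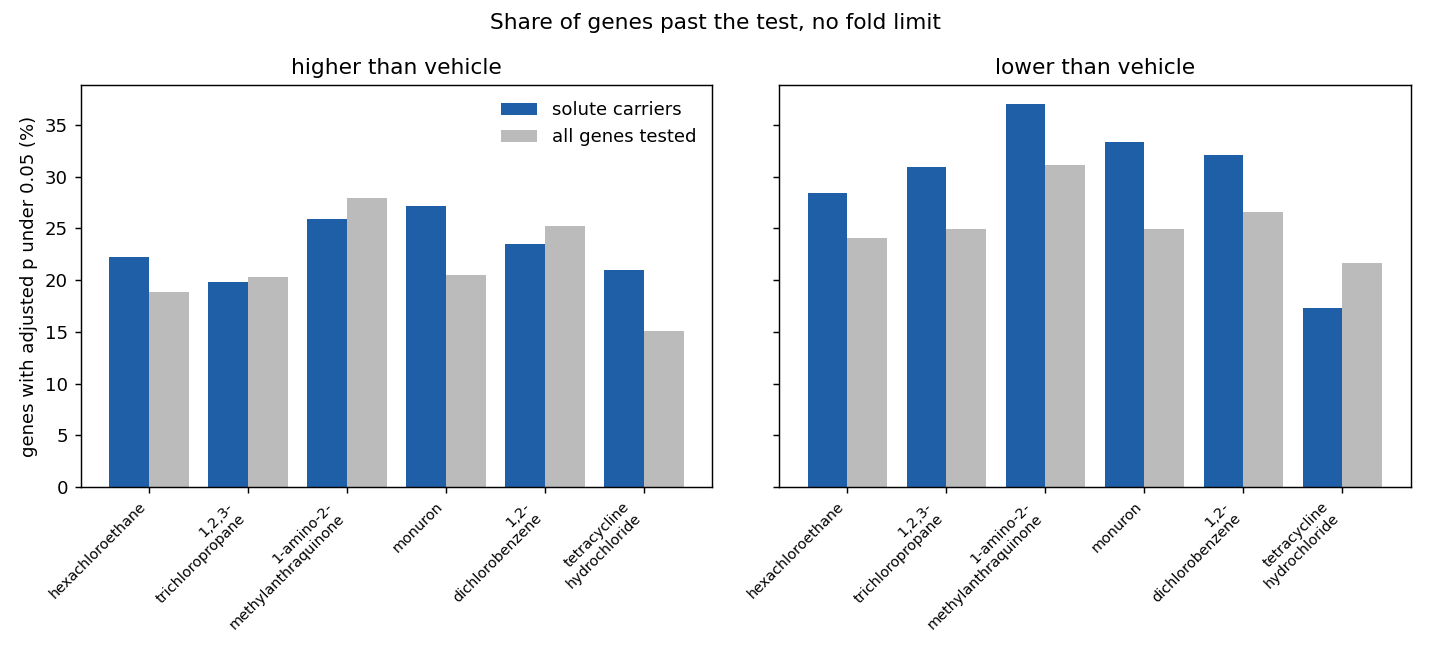
Share of the 81 solute carriers (blue) and of all 11757 genes tested (grey) with an adjusted p under 0.05 against vehicle (y axis, percent), higher (left) and lower (right), by compound (x axis). In monuron the carriers are at 27.2% higher and 33.3% lower and all genes at 20.5% and 24.9%; in tetracycline hydrochloride 17.3% of carriers and 21.6% of all genes are lower.

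Among the 14 amino acid carriers, between 1 and 7 fell and between 1 and 5 rose in each compound. Of all genes between 21.6% and 31.1% fell and between 15.1% and 27.9% rose, and the counts were not tested against these shares. Besides Slc6a6 and Slc7a10, Slc38a2, a sodium-coupled carrier of small neutral amino acids, fell under 1,2,3-trichloropropane, with rats at -0.59, -0.28, -1.14 and -1.68 and a mean of -0.92 (adjusted p = 0.0030). It also fell under monuron, at -0.80 with all rats below 0, a call that ended without rat 4 (adjusted p = 0.064). Its rats were widely spread in every compound, and under tetracycline hydrochloride they ran from -0.38 to 0.67. Slc7a2, a carrier of cationic amino acids, fell under 1,2,3-trichloropropane by 0.61, under 1,2-dichlorobenzene by 0.36 and under monuron by 0.32. Slc6a9, the glycine transporter, rose in 5 compounds, between 0.30 and 0.50, but with median centring these values were between -0.003 and 0.15 and none passed the test. Slc7a5, the light chain of the large neutral amino acid exchanger, rose by 0.59 under hexachloroethane, 0.56 under monuron and 0.24 under 1,2-dichlorobenzene, the last of which was lost without rat 1, 2 or 3. Its heavy chain Slc3a2 fell under 1,2-dichlorobenzene (-0.33) and 1,2,3-trichloropropane (-0.27), the last of which was lost in 1 of 13 alternative runs. Slc3a2 rose under hexachloroethane (0.51), 1-amino-2-methylanthraquinone (0.59) and monuron (0.36), but with median centring it was -0.06, 0.004 and -0.09.

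Slc7a5, Slc3a2 and Slc38a2 are known targets of the amino acid response, a program that cells run when amino acids are short. Other genes of that response were read from a list, of which 17 of 27 were measured. In 1,2-dichlorobenzene 11 rose and 1 fell, and in hexachloroethane 10 rose and 0 fell. In 1,2,3-trichloropropane 7 rose and 2 fell, in monuron 7 rose and 0 fell, and in 1-amino-2-methylanthraquinone 6 rose and 3 fell. In tetracycline hydrochloride 0 of the 17 passed the test, where 15.1% of all genes were higher and 21.6% lower. Among all genes the share past the test was 25.2% higher and 26.6% lower in 1,2-dichlorobenzene, 18.8% and 24.1% in hexachloroethane, 20.3% and 24.9% in 1,2,3-trichloropropane, 20.5% and 24.9% in monuron, and 27.9% and 31.1% in 1-amino-2-methylanthraquinone. The list's median was 0.39 in hexachloroethane, 0.37 in 1,2-dichlorobenzene, 0.25 in monuron, 0.16 in tetracycline hydrochloride, 0.07 in 1-amino-2-methylanthraquinone and 0.06 in 1,2,3-trichloropropane, beside medians of all genes between -0.02 and -0.01. Phgdh, the first enzyme of serine synthesis, rose by 2.68 ± 0.22 (SD, n = 4) under 1,2-dichlorobenzene and 2.00 ± 0.40 under 1,2,3-trichloropropane. Asns, asparagine synthetase, rose by 1.58 ± 0.70 under hexachloroethane and 1.44 ± 0.23 under 1,2-dichlorobenzene. In 1,2-dichlorobenzene and 1,2,3-trichloropropane these enzymes rose while Slc3a2 fell. Slc38a2 fell in 1,2,3-trichloropropane and was not past the test in 1,2-dichlorobenzene, where Slc7a5 rose. In hexachloroethane and monuron Asns, Slc7a5 and Slc3a2 all rose, while Slc38a2 fell in monuron. Asns and Slc3a2 also rose in 1-amino-2-methylanthraquinone. A link between the carriers and the list was not tested.

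Among the 9 mitochondrial carriers, Slc25a22 and Slc25a15 had the largest decreases in 1,2,3-trichloropropane, monuron and 1,2-dichlorobenzene. In hexachloroethane it was Slc25a26, which carries the methyl donor S-adenosylmethionine, at -0.42 (adjusted p = 0.0019), and it also fell under monuron, at -0.45. Slc25a22, a glutamate carrier of the inner membrane, had rats at -1.002, -0.62, -0.93 and -1.02 under 1,2,3-trichloropropane, a mean of -0.89 ± 0.18 (SD, n = 4; 1.86-fold lower, adjusted p = 9.5e-08). It fell by 0.72 under 1,2-dichlorobenzene, 0.50 under monuron and 0.42 under 1-amino-2-methylanthraquinone, with all rats below 0. Under hexachloroethane it was at -0.00 ± 0.05 and under tetracycline hydrochloride at 0.05 ± 0.24, and its vehicle level was also lowest in these compounds, at 12.24 and 12.45 where the other pools were between 12.99 and 13.15. Slc25a15 encodes the ornithine carrier that links the mitochondrial and cytosolic steps of the urea cycle. It fell under monuron (-0.71 ± 0.11), 1,2-dichlorobenzene (-0.71 ± 0.20) and 1,2,3-trichloropropane (-0.59 ± 0.35), with all 12 rats below 0. In the other compounds its means were between -0.20 and 0.19 and did not pass the test. Slc25a4, an adenine nucleotide carrier, rose by 0.47 under 1-amino-2-methylanthraquinone and 0.29 under 1,2-dichlorobenzene, which median centring lowered to 0.16 and 0.08, neither past the test. Slc25a30 had means of 0.48 and 0.50 under hexachloroethane and 1,2,3-trichloropropane without passing the test.

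Among the 7 carriers of phosphate, sulfate and dicarboxylates, Slc17a3, a sodium phosphate carrier that also moves organic anions, rose in 4 compounds. Under 1,2-dichlorobenzene the rats were at 0.77, 0.86, 0.76 and 0.61, a mean of 0.75 ± 0.10 (SD, n = 4; 1.68-fold, adjusted p = 6.8e-08). Under monuron they were at 0.62, 0.75, 0.70 and 0.78, a mean of 0.71 ± 0.07 (SD, n = 4; adjusted p = 2.6e-07). With median centring these means were 0.36 and 0.25, both past the test. The increases of 0.53 under 1-amino-2-methylanthraquinone and 0.31 under tetracycline hydrochloride turned to -0.08 and -0.09 with median centring. Under hexachloroethane Slc17a3 fell, at -0.27 with all rats below 0, and differed from the other 5 compounds by -0.76 (adjusted p = 1.3e-06). That decrease against vehicle was lost in 1 of 13 alternative runs. Slc17a2, a relative of Slc17a3, fell by 0.64 under hexachloroethane, by 0.32 under 1,2-dichlorobenzene and by 0.26 under 1-amino-2-methylanthraquinone. The decrease under 1,2-dichlorobenzene was lost in 1 of 13 alternative runs and that under 1-amino-2-methylanthraquinone in 2. Slc13a2, a dicarboxylate carrier, fell by 0.68 under 1-amino-2-methylanthraquinone and by 0.33 to 0.37 under 1,2,3-trichloropropane, 1,2-dichlorobenzene and monuron. Its decrease under 1,2-dichlorobenzene was lost in 1 of 13 alternative runs.

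Among the 8 metal carriers, Slc39a4, which imports zinc, was the member with the highest mean ratio under any compound, and it stood out in hexachloroethane. The 4 hexachloroethane rats were at 0.95, 0.84, 0.89 and 0.82, a mean of 0.88 ± 0.06 (SD, n = 4; 1.84-fold higher, adjusted p = 4.6e-07). All other rats were at 0.23 or lower. The difference from the other 5 compounds was 0.98 (adjusted p = 1.3e-06), and that from tetracycline hydrochloride within the shared scan day was 1.16 (adjusted p = 9.2e-06). The vehicles of that pair differed, corn oil against water. Slc39a4 fell under tetracycline hydrochloride, at -0.28, and under 1,2,3-trichloropropane, decreases lost in 2 and 3 of 13 alternative runs. Its vehicle level spanned 0.35 across compounds and its treated level 1.52. With median centring the hexachloroethane mean was 0.09 (adjusted p = 0.56), so its size over vehicle depends on the scaling. The increase passed the test in the other 12 of 13 alternative runs, the scanner's own ratio and the deposited series table among them. Slc30a4, which moves zinc out of the cytosol, fell by a small amount in each of the 6 compounds, between -0.32 and -0.13, and the smallest of these, under 1-amino-2-methylanthraquinone, was lost without rat 1 (adjusted p = 0.074). Slc31a1, the copper importer, fell by 0.31 under 1-amino-2-methylanthraquinone and rose in the other 5 compounds by 0.22 to 0.40, where median centring turned it to between -0.46 and -0.35. Slc40a1, the iron exporter, rose under 1-amino-2-methylanthraquinone (0.39) and monuron (0.34), which median centring turned to -0.14 and -0.03. Slc11a1, a metal carrier of macrophages, fell under 1,2-dichlorobenzene by 0.48. It is itself 1 of 5 measured genes of the Kupffer cell and macrophage list, so the list repeats its value in part. With it, 4 of the 5 fell there, where 26.6% of all genes fell. The others that fell were Csf1r (-0.52), C1qb (-0.30) and Cd163 (-0.25), while Clec4f (-0.28) did not pass the test. The average of the 5 genes, Slc11a1 included, was between -0.74 and -0.21 in a rat. In the other compounds that average ran from -0.61 to 0.69. All 5 stellate cell markers measured fell in 1,2-dichlorobenzene as well, where 26.6% of all genes fell. Their median there was -0.37, and their medians in the other compounds were between -0.16 and -0.003. The part of those cells in the 3 called decreases and other values of that compound was not tested.

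Among the 8 carriers of sugars and other sodium-coupled solutes, Slc2a5, the fructose transporter, fell under 1-amino-2-methylanthraquinone. The rats were at -1.48, -1.18, -0.07 and -1.18, a mean of -0.98 ± 0.62 (SD, n = 4; 1.97-fold lower, adjusted p = 0.00012). Rat 3 was near 0 and the other three were more than 2-fold lower, and without rat 3 the mean was -1.28. Slc2a1, a glucose transporter of most tissues, fell under 1,2,3-trichloropropane, with rats at -0.14, -0.36, -1.04 and -1.41 and a mean of -0.74 (adjusted p = 0.0025). Its decrease of 0.45 under 1,2-dichlorobenzene (adjusted p = 0.044) ended when any 1 rat was left out, with adjusted p between 0.054 and 0.26. Slc2a2, the main glucose transporter of hepatocytes, rose under tetracycline hydrochloride (0.50) and 1,2,3-trichloropropane (0.29), which median centring turned to -0.002 and -0.35. Slc5a3, a myo-inositol carrier, rose by 0.44 under tetracycline hydrochloride (0.19 with median centring). Slc5a6, which carries biotin and pantothenate, rose in all 6 compounds, between 0.12 and 0.33, and turned to between -0.43 and -0.13 in all 6 with median centring.

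Carriers of drugs and organic ions held decreases and increases, and the increases given here depended on the scaling. Decreases of Slc22a8 and of the organic anion transporting polypeptides kept their direction with median centring and were larger there. Slc22a8, an organic anion transporter, fell under 1-amino-2-methylanthraquinone by 0.64 and under tetracycline hydrochloride by 0.68, where the rats ran widely, from -1.80 to -0.11, and the mean without rat 1 was -0.31 (adjusted p = 0.024). Slc22a5, the carnitine transporter, rose in all compounds but 1-amino-2-methylanthraquinone, where it was -0.18, by 0.36 to 0.46, and with median centring was between -0.11 and 0.08 with none past the test. The organic anion transporting polypeptides fell mostly in 3 compounds. Slc21a1 had rats at -1.23, -0.56, -0.54 and -0.90 under 1-amino-2-methylanthraquinone, a mean of -0.81 ± 0.32 (SD, n = 4; adjusted p = 2.5e-08), and fell by 0.58 under hexachloroethane and 0.46 under 1,2-dichlorobenzene. Slc21a5 and Slc21a13 fell in these 3 compounds too, between -0.66 and -0.46. Slc21a13 also fell under 1,2,3-trichloropropane, at -0.20, a decrease lost in 2 of 13 alternative runs. Slc21a10 fell under 1,2,3-trichloropropane (-0.53), 1,2-dichlorobenzene (-0.51) and 1-amino-2-methylanthraquinone (-0.46, and -0.29 without rat 1), and was at 0.11 under hexachloroethane. Under tetracycline hydrochloride Slc21a5 rose by 0.26 and Slc21a13 by 0.25, and under monuron Slc21a13 rose by 0.22, values that median centring turned to -0.24, -0.03 and -0.04.

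The remaining groups held smaller changes. Slc16a10, an aromatic amino acid carrier of the monocarboxylate family, fell under 1,2-dichlorobenzene, with rats at -0.94, -0.88, -0.92 and -0.32, and under hexachloroethane, with a mean of -0.60. Its 4 kept probes differed: under 1,2-dichlorobenzene probe 12238 gave -1.07 and probe 704098 gave -0.89, while probe 6731, detected in the treated channel on 4 of 24 arrays, gave -0.13. The gene mean of -0.77 is therefore smaller than that of its bright probes. Slc16a1, the lactate carrier, fell by 0.29 under hexachloroethane, 0.28 under monuron and 0.16 under 1-amino-2-methylanthraquinone. The last was lost in 3 of 13 alternative runs, those without rat 1 or rat 3 among them. Slc26a1, a sulfate carrier, fell under 1-amino-2-methylanthraquinone (-0.76 ± 0.28), 1,2,3-trichloropropane (-0.50 ± 0.23) and 1,2-dichlorobenzene (-0.27 ± 0.11). Slc4a4, a sodium bicarbonate carrier, rose by 0.65 under 1,2-dichlorobenzene. Its increase of 0.37 under 1-amino-2-methylanthraquinone was lost in 3 of 13 alternative runs, that without rat 1 among them (0.17, adjusted p = 0.22). Slc4a11 fell in 4 compounds, most under 1-amino-2-methylanthraquinone at -0.50. Slc41a2, a magnesium carrier, fell under 1-amino-2-methylanthraquinone by 0.49, 1,2,3-trichloropropane by 0.46 and 1,2-dichlorobenzene by 0.28, and its increase of 0.21 under tetracycline hydrochloride turned to -0.20 with median centring. Slc33a1, which carries acetyl-CoA into the endoplasmic reticulum and Golgi, rose in 4 compounds by 0.13 to 0.33, all of which turned negative with median centring. Slc35b2, which carries the sulfate donor of the Golgi, rose in 5 compounds by 0.15 to 0.28, none of which passed the test with median centring. The scaffold gene Slc9a3r1 fell in 5 compounds, between -0.38 and -0.16. Its decrease under 1,2,3-trichloropropane was lost without rat 1, 2 or 3 (adjusted p up to 0.12) and that under hexachloroethane without rat 4 (adjusted p = 0.060). Of its partners and those of other carriers, 4 of 16 listed were measured. Bsg, the partner of the lactate carriers, rose in 5 compounds, most under 1-amino-2-methylanthraquinone at 0.86, and fell by 0.22 under tetracycline hydrochloride. The scaffold Pdzk1 fell by 0.78 under 1-amino-2-methylanthraquinone and rose by 0.38 under hexachloroethane and 0.33 under monuron.

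**Figure D4:**
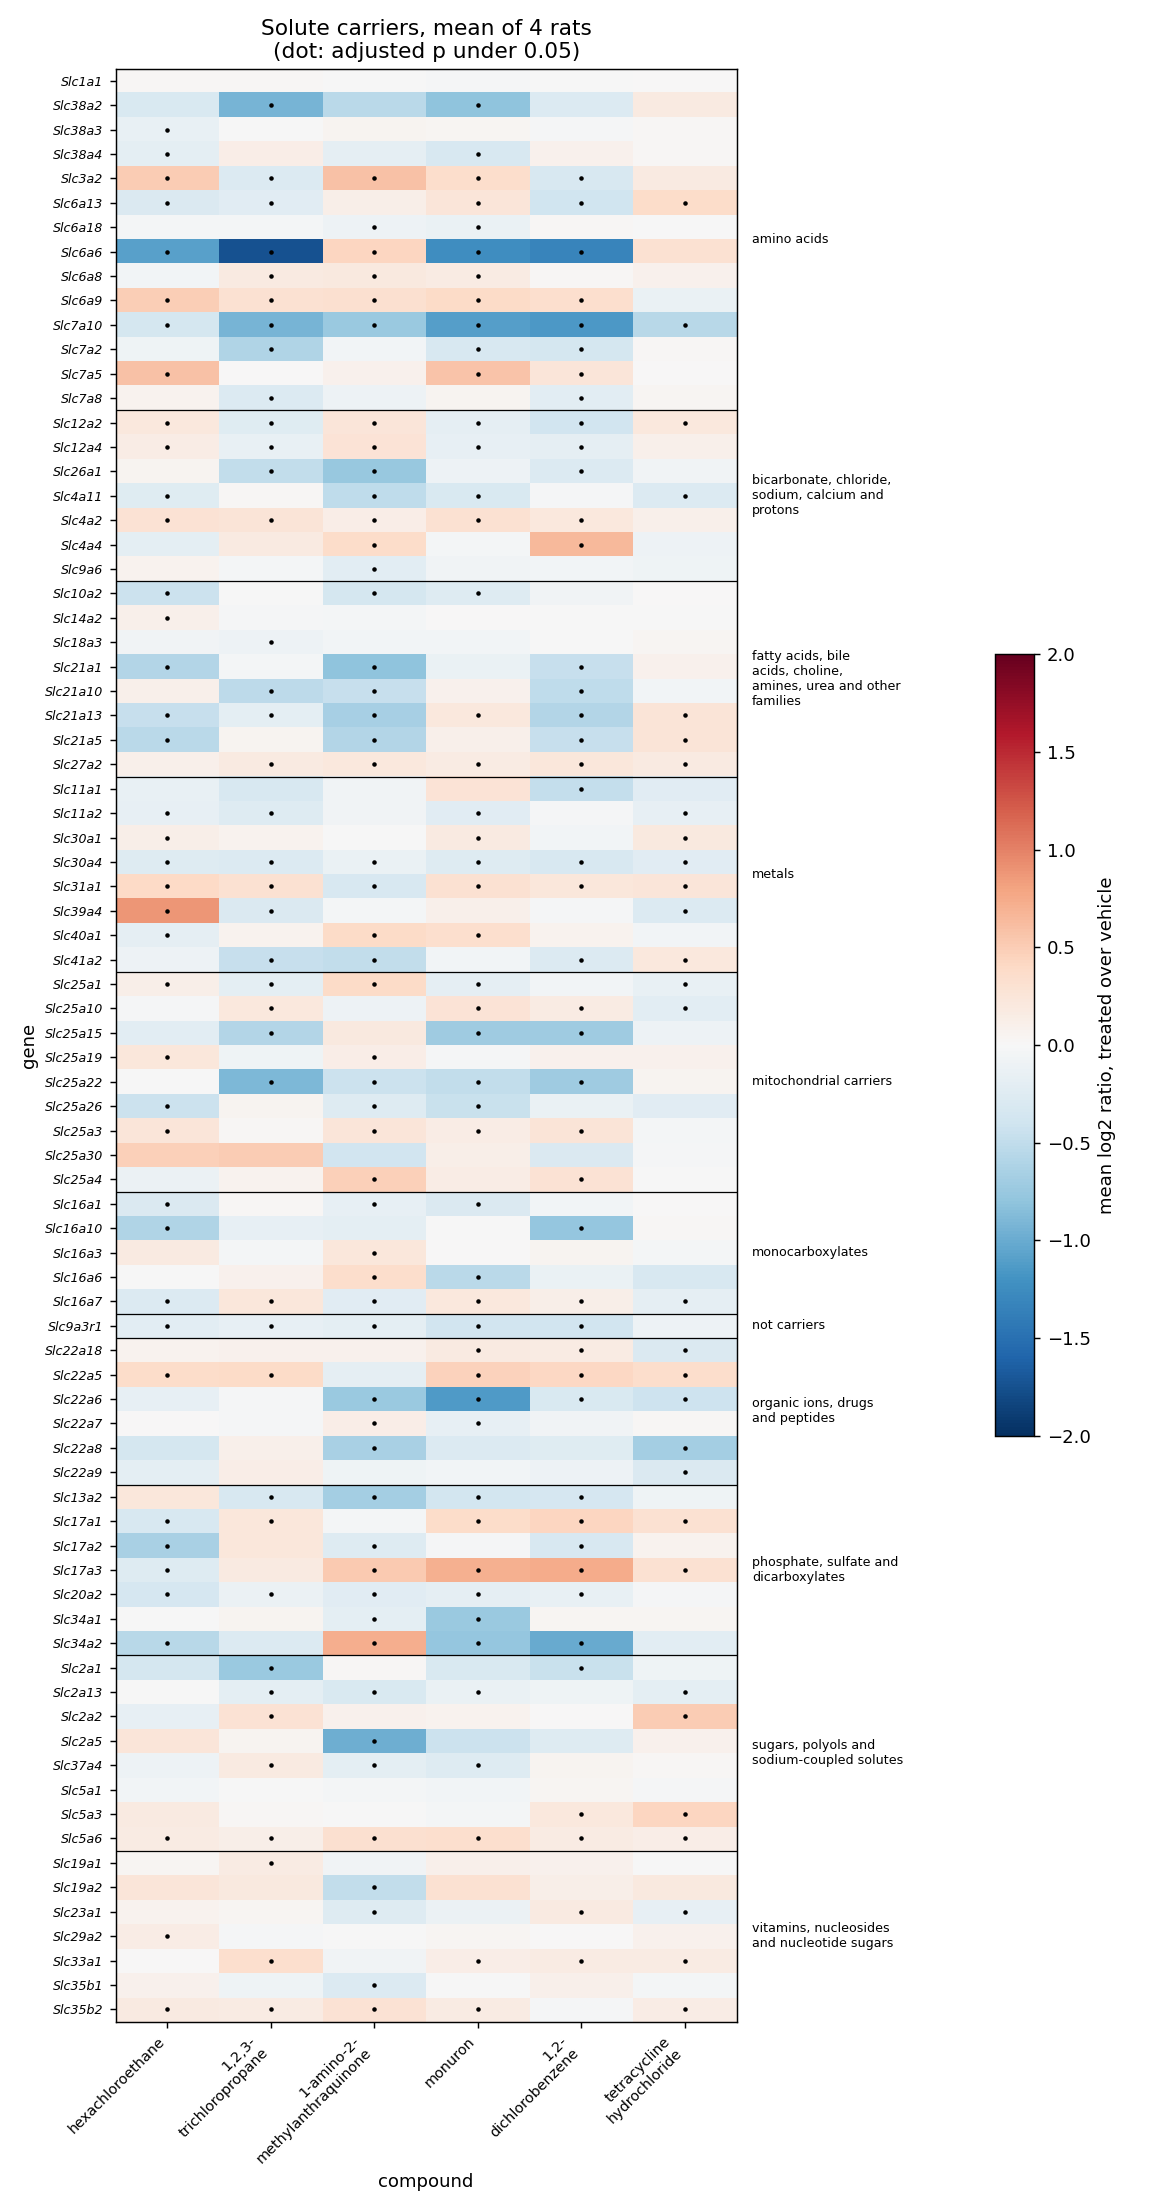
Mean log2 ratio of 4 rats to vehicle (colour, blue lower and red higher) for 80 of the 81 members (rows, grouped by what they carry) in 6 compounds (columns); dots mark an adjusted p under 0.05. Most cells are pale, and the darkest include Slc6a6, Slc7a10, Slc22a6, Slc34a2 and Slc2a5, with Slc39a4 red in hexachloroethane.

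Differences between compounds at 2-fold were found for Slc6a6 and Slc34a2 alone when a compound was set against the average of the remaining 5. Of the 4 such calls, 1 was lower in 1,2,3-trichloropropane, where 0.298% of all genes were, 2 were higher in 1-amino-2-methylanthraquinone, where 0.893% were, and 1 was higher in tetracycline hydrochloride, where 0.272% were. Within the shared scan days, hexachloroethane against tetracycline hydrochloride had 1 member called higher, Slc39a4, and 1 lower, Slc6a6, where 0.315% and 0.357% of all genes were called. Monuron against 1,2-dichlorobenzene had 0 in either direction, where 0.51% and 0.434% were.

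Carcinogens against non-carcinogens gave no called member and no called gene in limma with compound as a random block (0% of all genes). At an unadjusted p under 0.05 there were 0 members and 196 of all genes. Among members the difference ran from -0.60 for Slc38a2, at -0.64 in carcinogens and -0.05 in non-carcinogens, to 0.39 for Slc34a2, at -0.22 and -0.61. Slc6a6 was at -0.91 and -0.51. Slc6a6 was called lower in 3 of the 4 carcinogens and 1 of the 2 non-carcinogens. With 4 compounds against 2, the spread between compounds of a class sets the error, and the test has few units.

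Across the members the treated level varied more between compounds than the vehicle level in most cases. The median range across the 6 compounds was 0.41 for the vehicle channel and 0.54 for the treated channel on the log2 scale. The vehicle level spanned more than the treated level in 18 of the 81 members. Slc21a10 could not be compared, because its monuron levels were missing. Repeat measurements of a pool on the 4 arrays of a compound had a median SD of 0.04, and the 4 treated rats one of 0.12.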

How the data were processed

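Liver RNA of 24 treated rats was measured on 24 two-colour arrays, Cy5 holding pooled vehicle RNA and Cy3 a treated rat, with no dye swap, per the labels. The deposited scanner files, made with Agilent Feature Extraction 9.1.3.1 per the file headers, gave mean signal and median background as linear intensity and a log10 ratio. The deposited series table holds values whose log2 scale and direction, treated over vehicle, were found by setting them against the scanner ratio of the same array (correlations 0.685 to 0.993), and its normalization is not given in the sources used here. Both ratios were used as alternatives.

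Signals were corrected with normexp (offset 50) and loess within arrays in limma 3.58.1 (R 4.3.3). Control and outlier spots were removed and the 2 spots of a probe averaged. Probes were kept where, in 1 channel, both spots exceeded background clearly (the scanner's flag) throughout the 4 arrays of a compound (16085 of 21900 probes; 135 of 164 carrier probes). A gene was the mean of its kept probes. All arrays were fitted with 1 mean per compound (lmFit and eBayes, 18 residual and 2.94 prior degrees of freedom). Fits were tested on simulated data. The class contrast had compound as a random block (consensus correlation 0.58). Channel levels used Aquantile scaling. P-values were Benjamini-Hochberg adjusted over all genes.

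Members, lists and tests were chosen with earlier results of these data known. The rule named, per compound, up to 8 carriers called in each direction with 1 sign on all 4 arrays, up to 4 called against the other 5 compounds, the 2 with the largest mean over 24 rats in each other carrier group, and up to 4 called genes of each list. Carriers with an adjusted p under 0.05 and a mean of at least 0.7 in size were added later, and 20 further carriers after their values were seen. Names came from the array, and 75 members matched a current RefSeq symbol (GRCr8), 5 an older one and 1 none. No genomic positions were used. The number of arrays limits the precision. Replicate numbers were not treated as pairs of rats in the main fit. Deviations of 60 same-numbered pairs correlated between -0.26 and 0.39. Their median was 0.05, and that of pairs with other numbers was -0.01. Of other cell markers, S100a8 (neutrophils) rose in 1-amino-2-methylanthraquinone (0.54) and fell in tetracycline hydrochloride (-0.31), Kdr (endothelium) rose in monuron (0.27) and tetracycline hydrochloride (0.41), and 1 of 2 lymphocyte markers rose in 1,2,3-trichloropropane and 1-amino-2-methylanthraquinone and 1 fell in monuron and tetracycline hydrochloride. All 5 stellate markers fell in 1,2-dichlorobenzene, where 26.6% of all genes fell. The values of 1 member are not reported here.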

Additional observations from a re-analysis of the deposited data

Results flagged for a closer look

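Among 258 groups of 4 rats, 43 named genes in 6 compounds, 13 had a rat that stood apart from the others by Dixon's criterion, and chance gives about 1 group in 20. Under 1,2-dichlorobenzene these were Slc7a10 at -1.55 in rat 3, where the others were between -1.03 and -0.98, Slc16a10 at -0.32 in rat 4, and Slc39a4 at 0.16 and Slc41a2 at -0.18 in rat 1. Under hexachloroethane they were Slc2a5 at 0.70 and Slc2a1 at -0.62 in rat 1, Slc26a1 at 0.24 in rat 2 and Slc7a2 at -0.34 in rat 4. Under 1,2,3-trichloropropane they were Slc17a3 at 0.37 and Slc22a6 at -0.11 in rat 1, Slc25a4 at 0.12 in rat 2 and Slc22a5 at 0.70 in rat 4. Under tetracycline hydrochloride Slc21a13 stood at 0.12 in rat 4.

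Tested differences between compounds reached 2-fold for Slc34a2 in 1-amino-2-methylanthraquinone (1.29 against the other 5), and for Slc6a6 in 1,2,3-trichloropropane (-1.17), 1-amino-2-methylanthraquinone (1.45) and tetracycline hydrochloride (1.29). Hexachloroethane differed from tetracycline hydrochloride on their shared scan day by 1.16 for Slc39a4 and by -1.38 for Slc6a6.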

How the results depend on the processing

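The called members per compound were 1 in hexachloroethane, 1 in 1,2,3-trichloropropane, 0 in 1-amino-2-methylanthraquinone, 3 in monuron, 3 in 1,2-dichlorobenzene and 0 in tetracycline hydrochloride, with 4 against the other 5 compounds. Centring arrays on the median in place of loess gave 8, 8, 15, 8, 6 and 1. It moved the median of all genes to between -0.46 and -0.17 per array, from between -0.03 and -0.01, and the share of lower among members past the test to between 80.0% and 85.7%, from between 45.2% and 61.0%. It turned the sign of 33 changes (values for the affected compounds, in the order above), namely Slc17a3 -0.076, -0.094, Slc21a13 -0.044, -0.031, Slc21a5 -0.24, Slc22a5 -0.11, -0.034, Slc2a2 -0.35, -0.0016, Slc31a1 -0.46, -0.45, -0.46, -0.42, -0.35, Slc33a1 -0.29, -0.46, -0.33, -0.32, Slc34a1 0.56, Slc3a2 -0.064, -0.087, Slc40a1 -0.14, -0.035, Slc41a2 -0.20, Slc5a3 -0.028, Slc5a6 -0.43, -0.38, -0.31, -0.13, -0.22, -0.28, Slc6a6 -0.14, Slc6a9 -0.0026. The scanner log ratio and the series table each gave 3 in hexachloroethane, 3 in 1-amino-2-methylanthraquinone and 5 in monuron, and 10 and 12 against the other 5. Without the filter there were 0 in hexachloroethane, 2 against the other 5 and 5 of the 8 named calls, since the dim Slc6a6 probe entered the mean. Without the fold limit the counts were 41, 41, 51, 49, 45 and 31, and 197 against the other 5. A normexp offset of 16 gave 2 in 1-amino-2-methylanthraquinone. Leaving out 1 rat gave 0 to 1 in hexachloroethane (0 without rat 3), 1 to 3 in 1,2,3-trichloropropane (2 without rat 1 and 3 without rat 2), 0 to 1 in 1-amino-2-methylanthraquinone (1 without rat 3), 2 to 3 in monuron and in 1,2-dichlorobenzene, 0 to 0 in tetracycline hydrochloride, 4 to 5 against the other 5 and 7 to 8 of the named calls. The cause was not tested, save where stated. With a replicate block the counts were the same, 8 named calls and 4 against the other 5, and Slc6a6 under 1-amino-2-methylanthraquinone had an adjusted p of 0.053. Averaging identical probes first, chosen after seeing the data, gave 7 named calls. The scan day could not be fitted as a random block because each compound lies within 1 day. The class comparison gave 0 called members under the alternatives run.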
